A study of Mus musculus with 6 samples.

Results

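Voltage-gated sodium channels are the proteins that open when a neuron depolarizes and carry the inward current of the action potential. The genes described here are 4 pore-forming alpha subunit genes (Scn1a, Scn2a, Scn3a and Scn8a) and 3 auxiliary beta subunit genes (Scn2b, Scn3b and Scn4b). They were chosen by symbol from the gene list of the files, where each symbol was listed once, and made up 7 of 19465 genes. The files list 14 sodium channel subunit genes in all. Male C57BL/6J mice gave 6 coronal sections of the brain, which were measured with Visium, in which probes hybridized to RNA in fixed, paraffin-embedded tissue are captured on an array of spots and counted by unique molecular identifiers (UMIs). No mouse carried an engineered allele or was given an agent. The groups were postnatal day 21 (P21) mice bred in-house, 12-15 week old adult mice from a vendor, and 28 month old mice from a national aging colony, with 2 sections each that the labels call biological replicates. The questions asked here are how the level of each gene varied across the brain and how it differed from adult at P21 and at 28 months.

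Each channel holds 1 alpha subunit, which forms the pore and senses voltage, joined by beta subunits that set its gating, its delivery to the membrane and its adhesion to neighboring proteins. The alpha subunits crowd at the axon initial segment, where action potentials start, and at the nodes of Ranvier, where they are renewed along myelinated axons. Scn1a (Nav1.1) is best known in fast-spiking inhibitory neurons and is the gene most often mutated in Dravet syndrome, Scn2a (Nav1.2) and Scn8a (Nav1.6) serve the initial segment of excitatory neurons, and Scn3a (Nav1.3) is strongest before birth. Scn4b encodes a beta subunit linked to the resurgent current of neurons that fire at high rates.

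In the mouse genome (GRCm38) the 7 genes lie in 3 places. Scn3a (chr2:65457118-65567627, minus strand), Scn2a (chr2:65620771-65767447, plus strand) and Scn1a (chr2:66270778-66440840, minus strand) are neighbors on chromosome 2. Scn3b (chr9:40269217-40291618), Scn2b (chr9:45117782-45130070) and Scn4b (chr9:45138395-45154152) are on the plus strand of chromosome 9, and Scn8a (chr15:100869858-101045938, plus strand) stands alone on chromosome 15. Scn1a and Scn4b both had called differences in the thalamus, so their promoters are shown, from 250 bases before to 50 after the start of transcription as RefSeq gives it on GRCm38.p6. The window of Scn1a is chr2:66440788-66441087, minus strand, and that of Scn4b is chr9:45138374-45138673, plus strand. Both are written 5′ to 3′, and capitals would mark any match, on either strand, to the GC box GGGCGG, the TATA box TATAAA, the CRE motif TGACGTCA or the E-box form CACGTG.
Scn1a: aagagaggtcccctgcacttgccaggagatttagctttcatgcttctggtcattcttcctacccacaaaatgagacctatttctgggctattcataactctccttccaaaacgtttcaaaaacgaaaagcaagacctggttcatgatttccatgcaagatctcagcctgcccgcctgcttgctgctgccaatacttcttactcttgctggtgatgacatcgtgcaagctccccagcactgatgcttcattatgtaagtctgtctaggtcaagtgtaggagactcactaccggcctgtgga
Scn4b: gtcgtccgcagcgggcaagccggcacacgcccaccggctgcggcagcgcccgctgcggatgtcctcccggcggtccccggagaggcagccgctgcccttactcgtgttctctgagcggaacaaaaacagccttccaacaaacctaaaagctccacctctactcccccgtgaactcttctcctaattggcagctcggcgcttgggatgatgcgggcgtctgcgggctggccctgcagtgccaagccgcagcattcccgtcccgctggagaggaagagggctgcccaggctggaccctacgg
Neither window held any of the 4 motifs, which were present in 35.7%, 13.6%, 1.79% and 7.15% of the 32851 promoters of the same length in the table. The Scn4b window was 66.3% G or C with 26 CpG sites and the Scn1a window 47.3% with 5 CpG sites, against medians of 52.7% and 7 over all promoters. The promoter table held 5 of the 7 genes, and the files give no signal on promoters, so these sequences describe the genes and not the measurements.

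After filtering, 20336 spots remained, from 2917 to 3679 per section, with a median of 12074.5 to 25535 UMIs per spot. A spot covers several cells, so that fewer cells of a type and less RNA per cell cannot be told apart. Spots were clustered without the 7 genes and 23 related genes, and the clusters were named from marker genes as cortex (CTX, 6592 spots), hippocampus (HP, 1922), thalamus (TH, 3307), reticular thalamus (RT, 242), hypothalamus (HY, 3612), striatum (STR, 1159), fiber tracts (FT, 2119), meninges (MEN, 1042) and ventricular system (VS, 341). In each cluster at least 5 markers of its name's panel were raised. The arrays of the same slide version shared 2612 to 3364 spot barcodes, which mark array positions and not cells. Visium v1 slides, which take the tissue itself, carried the P21 and adult samples, whereas the aged samples went through the CytAssist transfer onto v2 slides with a revised probe design and a later Space Ranger. In every comparison of aged with adult, age cannot be told apart from these changes or from the source of the mice. The markers of choroid plexus, a tissue outside the cortex, summed to 422 and 241 CPM (a gene's UMIs as a rate of all UMIs of the section or zone, on edgeR's usual scale) in adult CTX and to 28.5 and 26.8 CPM in aged CTX, while over whole sections they summed to 3250 and 1520 CPM in adult and 2627 and 1731 CPM in aged. The median Moran's I of all genes, a measure of how alike neighboring spots are, was 0.0113 to 0.0166 in P21 and adult sections and 0.0226 and 0.0295 in aged sections.

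Over whole sections, Scn4b was the gene of the 7 that passed the test at P21, and none passed it at 28 months. A gene was called when its adjusted p in edgeR's quasi-likelihood test was under 0.05 and its fold over 1.5. Levels are in CPM scaled with TMM factors, which allow for differences in makeup between libraries. Scn4b measured 73.2 and 56.7 CPM in the P21 sections, 120.1 and 95.4 CPM in adult ones and 121 and 124 CPM at 28 months. Both P21 sections lay below both adult sections. The log2 fold change at P21 was -0.73 (SE 0.12, adjusted p = 0.00107), which makes 1 of 7 members called where 5.17% of the 11338 genes tested were called. Without P21 section 2 the log2 fold change was -0.56 and without adult section 1 it was also -0.56, both under the 1.5-fold limit.

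Scn1a was also lowest at P21. It measured 154 and 139.8 CPM at P21, 192 and 169 CPM in adult and 250.4 and 251 CPM in aged sections. The 3 ages did not overlap, with a log2 fold change of -0.29 (SE 0.08, adjusted p = 0.0131) at P21 and 0.48 (SE 0.08, adjusted p = 0.00033) at 28 months, both under 1.5-fold. In aged whole sections, 0 of 7 members were called by edgeR against 9.09% of genes, 5 of 7 had an unadjusted p under 0.05, and DESeq2 also called 0. In all, 5 of 7 members had an adjusted p under 0.05 at any fold, as did 54.7% of genes. They were Scn1a and Scn3a, both higher in aged than in adult sections, and Scn8a, Scn2b and Scn3b, all lower, with adjusted p between 0.00033 and 0.005. Each of the 5 had both aged sections on 1 side of both adult sections, and the share of all genes so separated was not computed. The median log2 fold change of all genes in this comparison was -0.11. Sections also differed in what they contained. HP held 326 and 300 spots at P21, 350 and 422 in adult and 284 and 240 in aged sections. HY held 715 and 621 spots at P21, 378 and 437 in adult and 614 and 847 in aged sections. The part of this makeup in the whole-section values was not tested, and zones were compared separately.

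**Figure D1:**
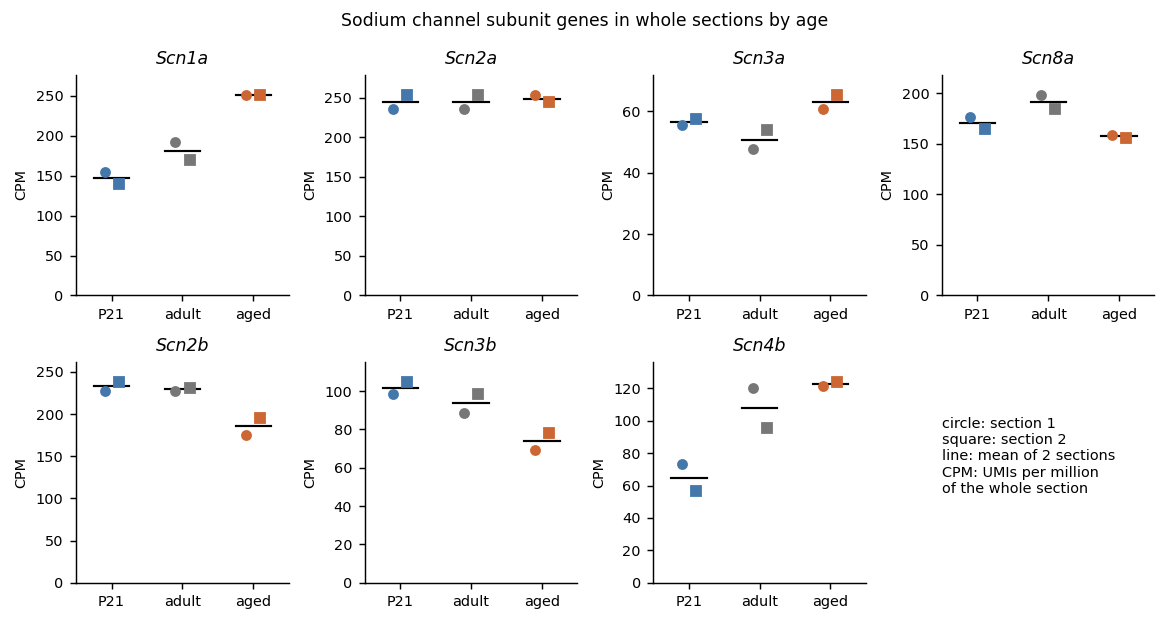
CPM of each of the 7 genes (vertical axis, from 0) in whole sections at P21, adult and 28 months (horizontal axis). Points are sections and the line is the mean of 2 sections. Scn1a and Scn4b are lowest at P21, and Scn2a overlaps between all 3 ages.

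Across the brain, each of the 7 genes had its own order of regions. Levels were compared over 12 regions, made of TH, RT, HY, STR and FT with 3 subregions of CTX (upper layers, deep layers, piriform and amygdala) and 4 of HP (CA1-2, CA3, dentate gyrus (DG) and the remaining hippocampal matrix). The 12 regions leave out MEN, VS and 1637 CTX spots whose subcluster took no name. Because regions were drawn from the same spots, these orders are descriptions and carry no test. The probes per gene are not known here, so levels are compared between regions and not between genes.

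Scn1a was highest in RT, at a mean of 370.6 CPM over the 6 sections (SD 166), and in TH, at 347 CPM (SD 154). RT exceeded TH in 4 of 6 sections, so the pair was not separated. TH was above upper CTX (267 CPM) in 6 of 6 sections, and upper CTX was above HY (177 CPM) in 6 of 6. DG was lowest, at 88.6 CPM, and the fold between RT and DG was 2.72 to 6.6 in single sections.

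Scn2a ran the other way. It was highest in piriform and amygdala CTX, at 350.1 CPM (SD 30.2), and lowest in RT, at 110.2 CPM (SD 45.4). Upper and deep CTX, CA1-2 and CA3 lay close together, between 305 and 316 CPM, and no neighbors among these 4 were in the same order in 6 of 6 sections. FT, the next lowest at 139 CPM, was above RT in 6 of 6 sections.

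Scn3a, the alpha subunit known best from the fetal brain, was most abundant in DG in 6 of 6 sections, at 136 CPM (SD 37.6). The DG is a site of neuron birth after development, and the part of newborn neurons in this level was not tested. STR (84.2 CPM) and HY (83.5 CPM) came next, with STR above HY in 4 of 6 sections, and TH (35.5 CPM) and FT (31.9 CPM) were lowest.

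Scn8a varied least among the alpha subunits. CA1-2 was highest in 6 of 6 sections, at 295 CPM (SD 43.4), and FT lowest, at 102 CPM, a fold of 2.5 to 3.83 in single sections. Deep CTX, TH and RT, at 193, 193 and 192 CPM, kept no order over the 6 sections.

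Among the beta subunits, Scn2b had the flattest profile of all 7 genes. It ranged from 290 CPM in TH (SD 23.7) to 115 CPM in FT (SD 31.3), and TH was highest in 5 of 6 sections. Scn3b marked the pyramidal layer of CA1-2 in 6 of 6 sections, at 495 CPM (SD 92.7), and DG came next at 244 CPM. It was lowest in RT, at 31.1 CPM, and the fold from CA1-2 to RT was 9.63 to 48.7 in single sections.

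Scn4b was the most regional of the 7 genes. STR averaged 380.4 CPM (SD 147), RT 305 CPM (SD 123) and TH 169 CPM (SD 63.4), and STR exceeded RT in 4 of 6 sections. RT was above TH and TH above upper CTX (82.7 CPM) in 6 of 6 sections each. DG (14.7 CPM) and piriform and amygdala CTX (17.3 CPM) were lowest, so that STR exceeded DG by 15.6- to 118-fold in single sections. The DG values rested on 12 to 44 UMIs of Scn4b per section.

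**Figure D2:**
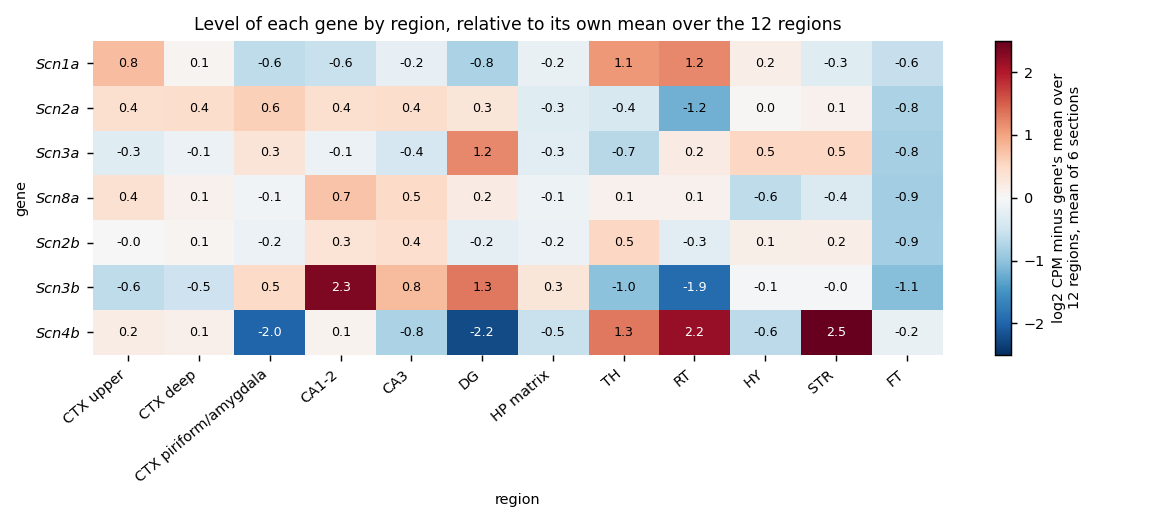
Level of each gene (rows) in 12 regions (columns) as the log2 difference from the gene's own mean over the regions, averaged over 6 sections. Scn4b spans from 2.5 in STR to -2.2 in DG, Scn3b peaks at 2.3 in CA1-2, and Scn2b stays within 0.9 of its mean.

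Moran's I was taken as Space Ranger lists it. For Scn4b it was 0.433 and 0.348 at P21, 0.44 and 0.431 in adult, and 0.678 and 0.698 in aged sections, and 0.362% to 1.23% of the listed genes had a higher value. For Scn1a it was 0.23 and 0.19 at P21, 0.333 and 0.319 in adult and 0.567 and 0.557 in aged sections. Scn3a had the lowest values in the adult sections, 0.073 and 0.0721, with 15.2% to 16.3% of genes above it. All 7 genes had a higher Moran's I in both aged sections than in the 4 others, as did the median of all genes given above.

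**Figure D3:**
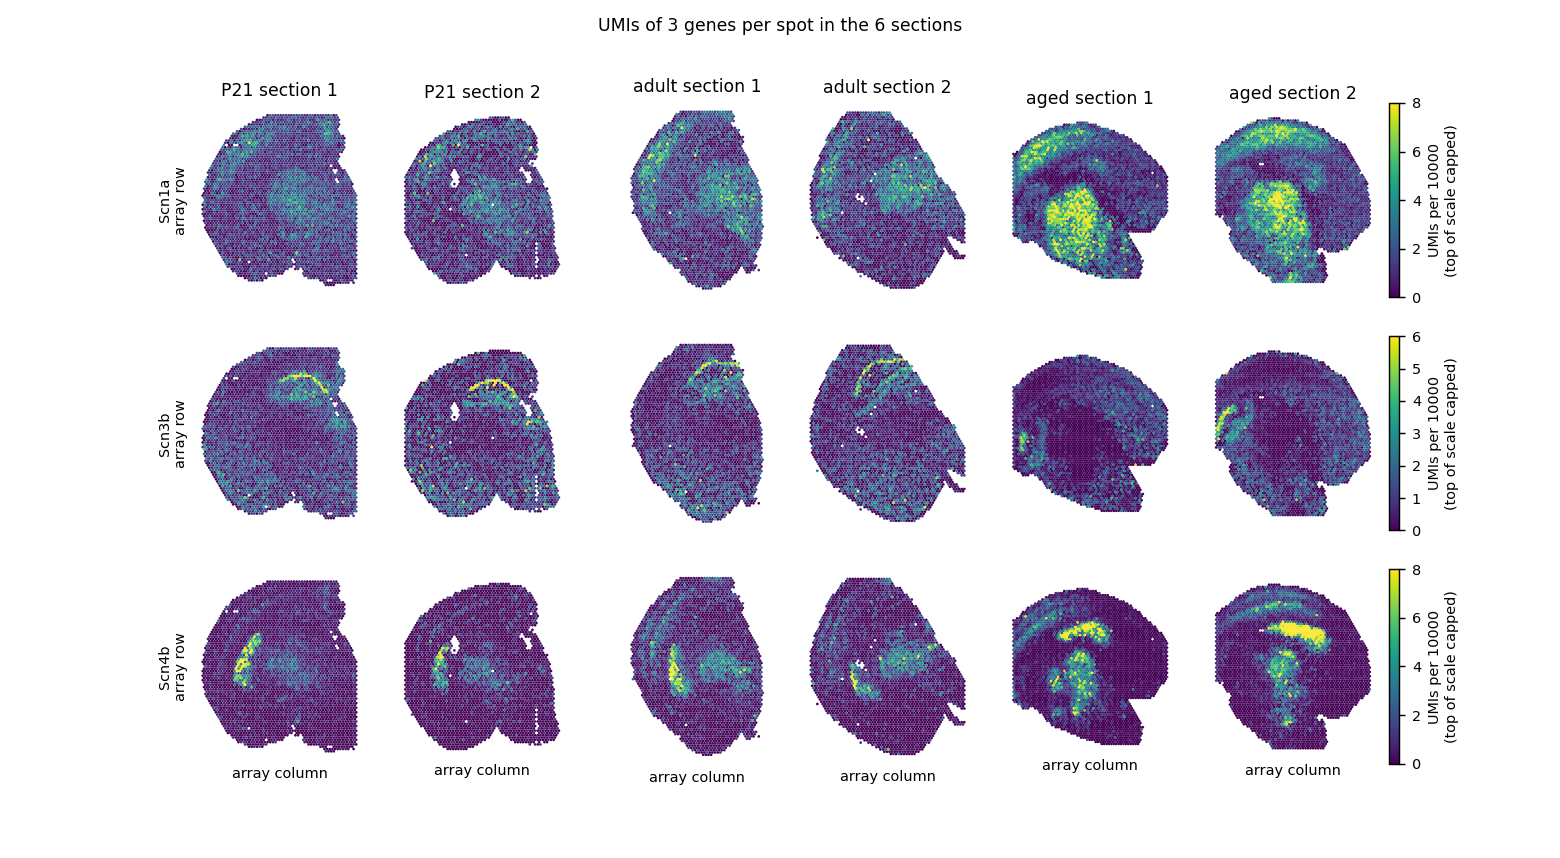
UMIs of Scn1a, Scn3b and Scn4b per 10000 UMIs in each spot of the 6 sections, plotted by array column and row as deposited, without rotation. The scale is capped at 8, 6 and 8. Scn4b is highest over STR, Scn3b over the CA1-2 arc and Scn1a over the thalamus and cortex.

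Between genes, Scn1a and Scn4b resembled each other (Pearson r = 0.62 over 72 points, 12 regions in 6 sections, centered within each section), whereas Scn1a and Scn3b were opposed (r = -0.69) and Scn2a and Scn3b were alike (r = 0.70). These points share libraries and depth and are not independent. Among 11333 genes, the profile most like Scn1a was that of the potassium channel gene Kcna2 (r = 0.94), followed by Scrt1 (r = 0.90) and the potassium channel gene Kcnc1 (r = 0.90). Scn2a was most like Lrfn2 (r = 0.92), Celf5 (r = 0.91) and Nol4 (r = 0.91), and Scn3a like Rprd1a (r = 0.83), Pnmal2 (r = 0.83) and Nop58 (r = 0.80). The nearest genes to Scn8a were Abhd6 (r = 0.89), the potassium channel gene Kcnj3 (r = 0.89) and Herc3 (r = 0.87). Scn2b was nearest to Ttc19 (r = 0.83), the neuronal enolase gene Eno2 (r = 0.81) and Hsph1 (r = 0.81). Scn3b followed the AMPA receptor gene Gria1 (r = 0.96), the GABA-A receptor gene Gabra5 (r = 0.91) and Actr3 (r = 0.91). Scn4b followed the creatine kinase gene Ckb (r = 0.84), Pcp4l1 (r = 0.82) and Chchd10 (r = 0.78).

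At P21, Scn4b was lower than in adult in the cortex and thalamus, and Scn3b was higher in the thalamus. These were the 3 calls among 42 member-by-zone tests over CTX, HP, TH, HY, STR and FT, a share close to the 6.01% of all gene-by-zone tests that were called (3.77% higher and 2.24% lower). P21 and adult sections were made on the same slide version with the same software. The P21 mice were bred in-house and the adult mice came from a vendor, so age and source cannot be told apart.

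In CTX, Scn4b measured 47.3 and 30.0 CPM at P21 and 95.8 and 60.3 CPM in adult sections. Both P21 sections were below both adult sections, and the adult pair was spread widely. The log2 fold change was -0.98 (SE 0.21, adjusted p = 0.00546 by edgeR), where 4.79% of genes were called in either direction, and DESeq2 gave an adjusted p of 0.0626. The subregions were tested one by one, without a test between them and without the unnamed CTX spots. In upper CTX, Scn4b measured 36.6 and 32.5 CPM at P21 against 104 and 70.7 CPM in adult, 2.52-fold lower (log2 fold change -1.33, SE 0.16, adjusted p = 2.02e-05), where 6.13% of genes were called. In deep CTX it measured 44.5 and 35.3 CPM against 107 and 63.5 CPM (log2 fold change -1.05, SE 0.17, adjusted p = 0.000277), where 5.25% of genes were called. In piriform and amygdala CTX the P21 values, 28.6 and 15.5 CPM, overlapped the adult values of 26.1 and 13.0 CPM, and the log2 fold change of 0.18 had an adjusted p of 0.704.

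In TH, Scn4b measured 100.4 and 94.9 CPM at P21 and 179 and 191 CPM in adult sections. The replicates were close and the ages apart, with a log2 fold change of -0.92 (SE 0.15, adjusted p = 0.00193), where 7% of genes were called. Scn3b went the other way, with 73.8 and 73.9 CPM at P21 and 43.8 and 49.6 CPM in adult TH. Both P21 sections were above both adult sections, at a log2 fold change of 0.66 (SE 0.13, adjusted p = 0.00697). That call ended without P21 section 1 (adjusted p = 0.0644), without P21 section 2 (0.0625) and without adult section 1 (0.0671). Among the alpha subunits in TH, Scn1a was lower at P21, at 213 and 199.9 CPM against 293 and 301 CPM (log2 fold change -0.52, SE 0.08, adjusted p = 0.00167), and Scn2a was higher, at 199 and 220.5 CPM against 166 and 159 CPM (log2 fold change 0.37, SE 0.10, adjusted p = 0.0233). Neither reached 1.5-fold.

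In STR, where Scn4b was highest on average, the test was not passed, with 375 and 256 CPM at P21 and 371 and 231 CPM in adult (log2 fold change 0.09, SE 0.20, adjusted p = 0.849). The P21 and adult ranges overlapped. In HY the log2 fold change was -0.97, with an SE of 0.44 and an adjusted p of 0.222 in the fit shared by all 6 sections. The sections measured 30.4 and 28.4 CPM at P21, 79.9 and 35.5 CPM in adult and 25.6 and 69.6 CPM in aged HY. With either aged section left out of that fit the fold was the same and the gene was called (adjusted p = 0.0221 without aged section 1 and 0.0226 without aged section 2). In DG, Scn3a was at 89.2 and 99.99 CPM at P21 against 132 and 140.0 CPM in adult, a log2 fold change of -0.54 (SE 0.14, adjusted p = 0.0192) under the fold limit.

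Other cell types differed at P21 in the same zones. Of 8 mature oligodendrocyte markers, 7 were called higher in CTX, where they summed to 7912 and 7231 CPM at P21 and 3149 and 2629 CPM in adult, and 7 of 8 in TH, where they summed to 18776 and 19262 CPM at P21 and 7156 and 7307 CPM in adult. The 3 erythrocyte markers tested, of 4 listed, were called higher in CTX and TH as well. Of 10 pan-neuronal markers 0 were called in either zone by edgeR, and they summed to 10724 and 10367 CPM at P21 and 11917 and 11664 CPM in adult CTX. The part of these cell types in the Scn4b and Scn3b results was not tested beyond the pan-neuronal scaling, under which all 3 zone calls stood.

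At 28 months, 7 of 42 member-by-zone tests were called, 3 higher and 4 lower, against 14.8% of all gene-by-zone tests (7.64% higher and 7.14% lower). Scaled on pan-neuronal markers, the zones gave 10 calls, 10 higher and 0 lower, which were Scn1a in CTX, TH, HY, STR and FT, Scn3a in HY, STR and FT, and Scn4b in STR and FT. That scaling moves all genes of a zone in a section alike. The share of all genes called under it is not given here, so these 10 calls cannot be set against other genes. With the TMM scaling used throughout, Scn1a was higher in TH, Scn3a in HY and Scn4b in STR, and Scn2a, Scn8a, Scn2b and Scn3b were lower in FT. Over the subregions, Scn1a was also called higher in upper CTX and Scn4b lower in piriform and amygdala CTX and in the hippocampal matrix, and RT gave the widest differences.

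Scn1a in TH measured 562 and 512 CPM in aged and 293 and 301 CPM in adult sections. The ages were far apart beside the spread of either pair, at 1.81-fold (log2 fold change 0.85, SE 0.08, adjusted p = 3.77e-05), where 13.7% of genes were called. This call held under all 14 alternatives run, with log2 fold changes of 0.79 to 0.93. In the same spots 5 of 8 oligodendrocyte markers were called lower, and of the 6 GABAergic markers tested 1 was called higher and 4 lower, while of 10 pan-neuronal markers 1 was called higher and 0 lower by edgeR. Their part in the Scn1a value was not tested beyond the pan-neuronal scaling. In upper CTX, Scn1a measured 366 and 390.5 CPM against 263 and 197 CPM (log2 fold change 0.71, SE 0.11, adjusted p = 0.000156), where 12.5% of genes were called, and without adult section 2 the log2 fold change of 0.52 fell under the fold limit. In HY (209 and 275 CPM against 198 and 126 CPM) the log2 fold change was 0.58 (SE 0.19, adjusted p = 0.0488), just below 1.5-fold. Adjusted p was under 0.05 for higher Scn1a in 5 of the 6 zones, a result shared by 20.7% of genes in CTX, 15.6% in HP, 18.3% in TH, 13.8% in HY and 16.2% in STR. FT was the exception, with 95.6 and 104.0 CPM in aged and 124 and 90.9 CPM in adult (adjusted p = 0.479), though with pan-neuronal scaling Scn1a was called higher there too, at a log2 fold change of 0.82. That scaling raises all genes of aged FT alike.

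In RT, the thin sheet of inhibitory neurons around the thalamus, Scn1a measured 592 and 575 CPM in aged against 262 and 297 CPM in adult sections. It was 2.08-fold higher (log2 fold change 1.06, SE 0.11, adjusted p = 2.64e-08). Scn4b was higher as well, at 505 and 403 CPM against 266 and 255 CPM (log2 fold change 0.80, SE 0.12, adjusted p = 1.03e-05). Scn2a was lower, at 45.9 and 62.2 CPM against 152 and 145 CPM, or 2.76-fold (log2 fold change -1.46, SE 0.17, adjusted p = 1.47e-07). Scn3b was lower by 4.25-fold, at 7.65 and 12.8 CPM against 38.0 and 47.7 CPM (log2 fold change -2.09, SE 0.30, adjusted p = 6.44e-06), on 11 and 16 UMIs in the aged sections. For these 4 genes no aged section overlapped an adult one, and the share of all genes so separated was not computed. Scn3a, at 75.1 and 73.4 CPM against 51.6 and 46.9 CPM, was called at 1.51-fold (adjusted p = 0.0244), and the call ended without adult section 1 (adjusted p = 0.0686), without adult section 2 (0.168) and in DESeq2 (0.311). Scn8a and Scn2b were not called in RT. In all, 5 of 7 members were called there, where 16.3% of genes were called.

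RT is thin, and the makeup of its spots differed between the ages. RT held 39 and 43 adult and 55 and 47 aged spots, of which 3 and 11 adult and 16 and 9 aged spots had RT spots all around them. The 5 glutamatergic neuron markers summed to 1853 and 1589 CPM in adult and 461 and 333 CPM in aged RT, 4 of them called lower, while the GABAergic markers summed to 4663 and 5278 CPM in adult and 8432 and 8598 CPM in aged RT, with 3 of 6 tested called higher and 1 lower. The choroid plexus markers summed to 2353 and 2252 CPM in adult and 147 and 203 CPM in aged RT. With the 26 spots of each section that had the highest RT markers, a choice made with the values known, the log2 fold changes were 1.07 for Scn1a, 0.81 for Scn4b, -1.29 for Scn2a and -2.29 for Scn3b. The part of neighboring tissue in these values was not tested further.

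Scn4b in STR measured 405 and 645 CPM in aged and 371 and 231 CPM in adult sections. The aged sections were above the adult ones, by a narrow margin for the lower aged section, and the log2 fold change was 0.80 (SE 0.20, adjusted p = 0.00464), where 14.3% of genes were called. The call rested on single sections, since it ended without adult section 2 (log2 fold change 0.50, adjusted p = 0.0733), without aged section 2 (0.42, adjusted p = 0.0722) and in DESeq2 (adjusted p = 0.224). In aged STR the glutamatergic markers summed to 1161 and 1174 CPM against 2324 and 2200.3 CPM in adult, with 4 of 5 called lower. Their part in the Scn4b value was not tested.

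Scn4b was lower in aged piriform and amygdala CTX, with 10.7 and 9.91 CPM against 26.1 and 13.0 CPM (log2 fold change -0.95, SE 0.23, adjusted p = 0.00115), where 12.4% of genes were called, and in the hippocampal matrix, with 33.5 and 35.7 CPM against 63.6 and 46.5 CPM (log2 fold change -0.66, SE 0.19, adjusted p = 0.00991), where 16.5% of genes were called. The adult sections differed from each other in both regions. Neither call stood without adult section 1, with log2 fold changes of -0.34 and -0.43. In the hippocampal matrix the call also ended with pan-neuronal scaling (log2 fold change -0.41, adjusted p = 0.223). DESeq2 gave adjusted p of 0.207 and 0.0953.

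Scn3a in HY measured 104 and 100.1 CPM in aged and 54.3 and 75.0 CPM in adult sections. The aged pair was close and above both adult values (log2 fold change 0.66, SE 0.14, adjusted p = 0.00808), where 11.9% of genes were called, and without adult section 1 the log2 fold change was 0.44, under the fold limit. In STR, Scn3a measured 113 and 113 CPM against 75.6 and 77.0 CPM, a log2 fold change of 0.56 (SE 0.11, adjusted p = 0.000567) just under that limit. Scn3b in aged TH was also just under it, lower than adult at a log2 fold change of -0.58 (adjusted p = 0.0079 by edgeR). It was called with plain CPM (-0.60) and interior spots (-0.63), and not with pan-neuronal scaling (-0.50).

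In FT, the myelinated tracts, 4 of the 7 genes were called lower in aged sections, where 27.0% of genes were called in either direction and 14.5% lower. Scn2a measured 87.97 and 92.5 CPM against 166 and 174 CPM in adult (log2 fold change -0.91, SE 0.09, adjusted p = 1.55e-07). Scn8a, the main alpha subunit of mature nodes of Ranvier, measured 63.8 and 64.8 CPM against 126 and 111 CPM (log2 fold change -0.88, SE 0.10, adjusted p = 4.12e-07). These counts are of RNA, and channel protein at nodes was not measured. The beta subunit Scn2b fell by 0.78 on the log2 scale (adjusted p = 2.01e-06) and Scn3b by 1.04 (adjusted p = 2.55e-05). No aged section overlapped an adult one for these 4 genes, while Scn1a, Scn3a and Scn4b overlapped in FT. Lower values were not confined to FT. Scn8a had both aged sections below both adult ones in 6 of 6 zones, at log2 fold changes of -0.88 to -0.09, and Scn2b in 5 of 6. Adjusted p by edgeR was under 0.05 in 3 zones for Scn8a and 2 for Scn2b. A lower value with an adjusted p under 0.05 was shared by 22.4% of genes in CTX and 37.4% over whole sections. The shares in the other zones are not given here. The share of all genes with such a separation was not computed.

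Pan-neuronal markers were lower in aged FT too, and their part in the 4 calls was not tested beyond scaling on them. The 10 pan-neuronal markers summed to 6485 and 6249 CPM in adult and 3322 and 3399 CPM in aged FT, with 7 called lower and 0 higher by edgeR and a median log2 fold change of -0.70. When FT was scaled on those markers, the log2 fold changes became 0.01 for Scn2a, 0.04 for Scn8a, 0.14 for Scn2b and -0.12 for Scn3b, and none of these 4 calls stood. The same scaling made the other 3 members called higher in FT, Scn1a at 0.82 (adjusted p = 1.28e-06), Scn3a at 0.71 (0.000156) and Scn4b at 0.65 (0.000111). It raises all genes of aged FT alike, so these 3 calls do not show a rise beside other genes. With TMM scaling Scn1a, Scn3a and Scn4b differed from adult by -0.10, -0.21 and -0.28, and the median of all genes was -0.04. Microglia markers summed to 687 and 780.4 CPM in adult and 2349 and 2373 CPM in aged FT, with 6 of 7 called higher, and 3 of 6 astrocyte markers were called higher. When each section was clustered alone, the log2 fold change in FT was -0.53 for Scn8a (adjusted p = 0.0651) and -0.20 for Scn2b (adjusted p = 0.6). In the 100 spots of each section with the highest FT markers the values moved the other way, to -1.84 for Scn2a, -1.64 for Scn8a, -1.42 for Scn2b and -1.78 for Scn3b, and Scn3a was called too, at -0.77 (adjusted p = 0.0301).

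**Figure D4:**
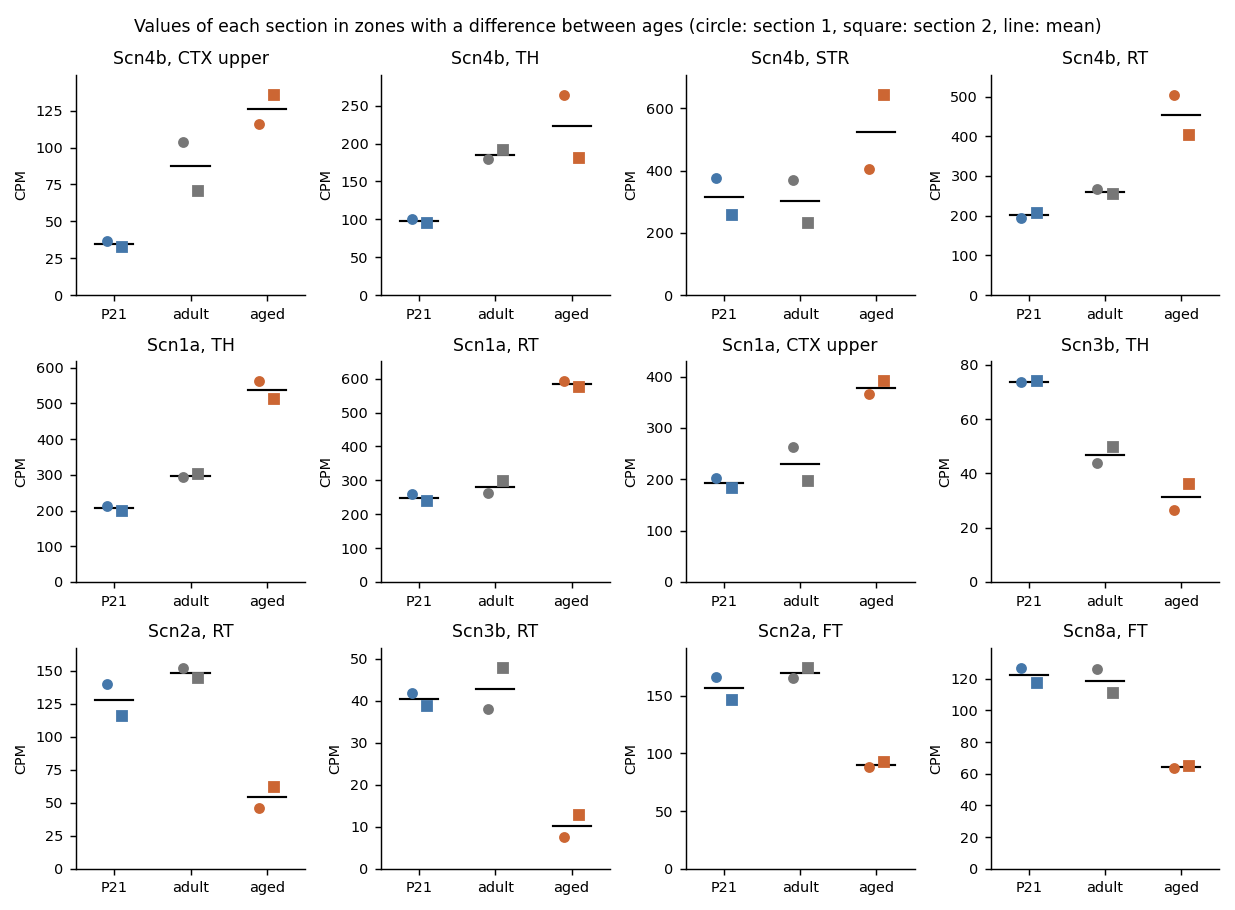
CPM in each section (circle, section 1; square, section 2; line, mean) at P21, adult and 28 months for 12 gene and zone pairs. In TH, Scn1a lies between 512 and 562 CPM in aged and 293 and 301 CPM in adult sections, and Scn3b between 73.8 and 73.9 CPM at P21 and 43.8 and 49.6 CPM in adult sections.

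Whether a gene's difference from adult changed between zones was tested with a zone-by-age interaction over the 6 zones, in which each section was its own block. A factor that acted on a gene equally in all zones of a section cancels in this test, and one that acted unequally between zones does not. The choroid plexus sums given above differed between adult and aged more in CTX and RT than over whole sections. In this test too, age at 28 months therefore cannot be told apart from the change of slide version. At 28 months, 6 of 7 members passed at an adjusted p under 0.05, where 49.1% of genes did. They were Scn2a (adjusted p = 1.80e-06), Scn8a (0.000133), Scn2b (0.000325), Scn3b (0.00576), Scn1a (0.0158) and Scn3a (0.016), and Scn4b did not (0.12). Scn2a differed from adult by 0.25 in HP and -0.91 in FT on the log2 scale, and Scn1a by 0.85 in TH and -0.10 in FT. Scaled on pan-neuronal markers, which were lower in aged FT, Scn2a differed by 0.24 in HP and 0.01 in FT, and Scn1a by 0.93 in TH and 0.82 in FT. The interaction itself was not tested with that scaling. When sections were clustered alone, 2 of the 7 passed, and without adult section 1, 3 passed. The shares of all genes passing under these 2 settings are not given here, so these counts cannot be set against other genes. At P21, Scn2a (adjusted p = 0.0423) and Scn3a (0.0461) passed, where 12.2% of genes did. Scn2a ranged from -0.13 in HP to 0.37 in TH and Scn3a from -0.25 in HP to 0.38 in TH. Neither passed once any P21 or adult section was left out.

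**Figure D5:**
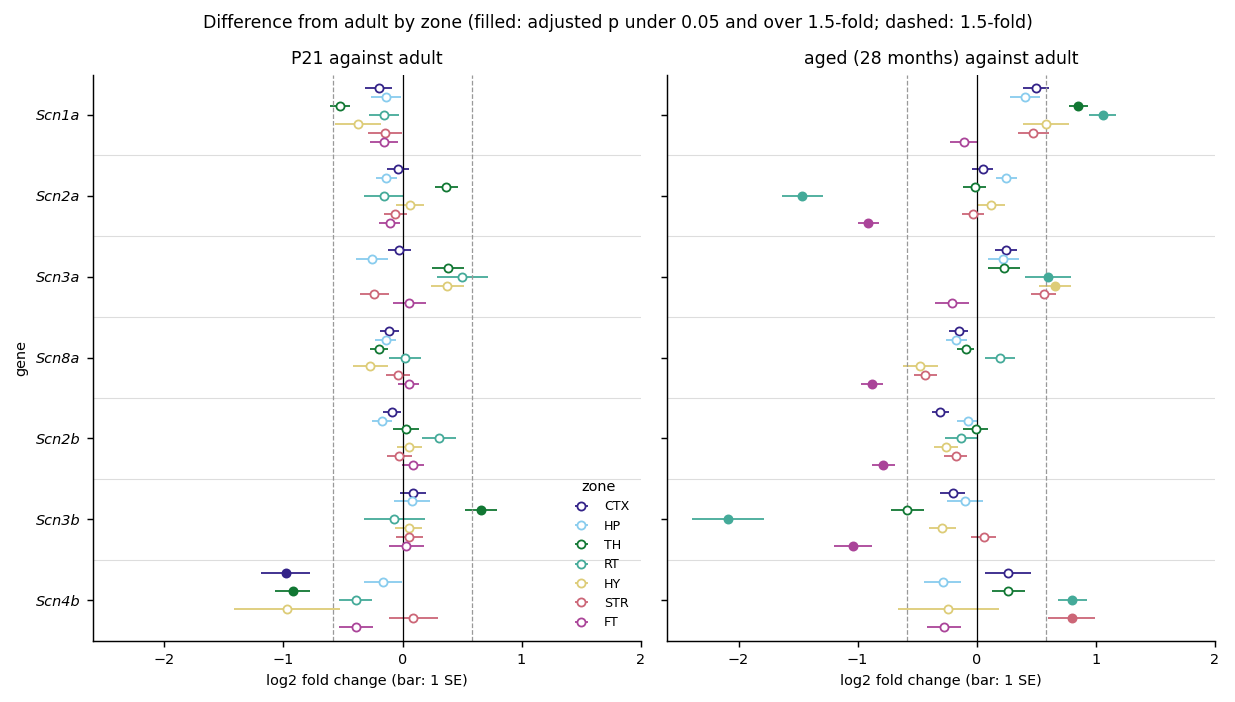
Log2 fold change from adult (horizontal axis) of each gene (rows) in 7 zones (colors) at P21 (left) and 28 months (right), with bars of 1 SE from edgeR. Filled points are called, and dashed lines mark 1.5-fold. At P21 the filled points are Scn4b in CTX and TH and Scn3b in TH, and at 28 months Scn3b in RT, at -2.09, lies farthest from 0.

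The balance between alpha subunits is given as a log2 ratio of CPM within a section, which depends on the probes and is read only between sections. In TH, Scn1a over Scn2a was 0.10 and -0.14 at P21, 0.82 and 0.92 in adult and 1.93 and 1.56 in aged sections. The 3 ages did not overlap. Scn8a over Scn2a in TH was -0.16 and -0.28 at P21, 0.31 and 0.36 in adult and 0.42 and 0.11 in aged sections, so that P21 stood below the other 4. In upper CTX, Scn8a over Scn2a overlapped between all ages, from -0.60 to -0.16. Over whole sections this ratio was -0.25 and -0.46 in adult and lower, at -0.67 and -0.65, in aged sections. In HP it was -0.10 and -0.21 in adult and -0.58 and -0.57 in aged sections. RT went the other way, from 0.26 and 0.33 in adult to 2.16 and 1.76 in aged sections, while adult and aged overlapped in CTX and FT. These ratios carry no test.

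Of the other sodium channel subunit genes, Scn4a, Scn10a and Scn11a passed the filter on low values in no zone, and the list is described here only in part. Scn7a, which encodes a sodium-sensing relative, measured 7.45 and 5.90 CPM in aged and 2.26 and 3.28 CPM in adult TH (log2 fold change 1.25, adjusted p = 0.0042), where 13.7% of genes were called. Both aged sections were above both adult sections. At P21, Scn7a was lower in CTX (4.67 and 6.41 CPM against 7.27 and 9.17 CPM, log2 fold change -0.62, adjusted p = 0.0347) and Scn9a was higher in TH (7.65 and 6.13 CPM against 2.14 and 3.47 CPM, log2 fold change 1.29, adjusted p = 0.00795). The P21 and adult sections did not overlap in either case, and at P21 4.79% of genes were called in CTX and 7% in TH.

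Proteins that hold the channels at the initial segment and the node were followed through 10 genes. At P21, 6 of 60 gene-by-zone tests were called higher and 2 lower, against 3.77% and 2.24% of all such tests, with a median log2 fold change of 0.08. Nfasc, the adhesion protein neurofascin of nodes and of their flanking glial loops, accounted for 5 of the 6, and in FT it measured 1629 and 1973 CPM at P21 and 664 and 659.9 CPM in adult (log2 fold change 1.44, adjusted p = 6.33e-09). The sixth was Ank3, which encodes the anchor protein ankyrin-G, in FT (log2 fold change 0.60). Both lower calls were Cntn2, a contactin of the region beside the node, in HY (-0.71) and FT (-0.86). At 28 months edgeR called 0 higher and 14 lower, against 7.64% and 7.14% of all such tests, with a median of -0.18. Cntnap2, which encodes the contactin partner Caspr2, supplied 6 of the 14, at 0.614 and 0.422 CPM in aged whole sections against 21.2 and 25.0 CPM in adult. Its log2 fold change was -5.01 to -5.99 over the 6 zones, and a change of probe cannot be told apart from age.

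The FGF homologous factors bind the tails of alpha subunits. With Nedd4l, a ligase for channel proteins, and Prrt2, a presynaptic protein, they formed a list of 6 genes. At P21 edgeR called 0 of 36 gene-by-zone tests, 11 had an unadjusted p under 0.05, and DESeq2 called 0. At 28 months 7 of 36 were called, all lower, where 14.8% of all such tests were called and 7.14% were lower, with a median log2 fold change of -0.28. Fgf14 had the widest drop, in FT (29.6 and 28.1 CPM against 70.6 and 73.3 CPM, log2 fold change -1.32) and HP (-0.61). The other calls were Fgf11 in HP and Fgf12, Fgf13, Nedd4l and Prrt2 in FT, where the pan-neuronal markers were lower as given above.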

How the data were processed

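The authors deposited UMI counts per spot and gene, made with Space Ranger 2.0.0 (P21, adult) or 3.1.1 (aged) on mm10, and the labels also list Space Ranger 2.1.0 and Seurat 5.1.0. From these deposited counts, spots with at least 250 genes and 500 UMIs were kept and clustered (Python 3.11.15, scanpy 1.11.5, scikit-learn 1.9.0, leidenalg 0.10.2) on 3000 variable genes and 10 principal components, with 20 neighbors and resolution 0.4. The deposited tables of Space Ranger also give a Moran's I score per gene, which was copied, and its p-values and a mean normalized signal per gene, which the authors' pipeline computed and which were not used here. The 15 clusters were named from marker panels.

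UMIs were summed per section and zone and tested with edgeR 4.0.16 (R 4.3.3, quasi-likelihood, age as the term, all 6 sections in the fit, Benjamini-Hochberg over all genes tested). Genes had to pass filterByExpr and be detected in over 10% of the zone's spots at either age and at least 10% of all spots. Called means adjusted p under 0.05 and fold over 1.5. CPM were scaled with each zone's TMM factors. Zone-by-age interactions used sections as blocks. The same model was tested on simulated data, where 100.0% of 2-fold changes were called in CTX, 95.9% in FT and 57.9% in CA1-2.

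Alternatives were plain CPM, filterByExpr alone, the replicate number as a block, scaling on pan-neuronal markers, a test against 1.5-fold, DESeq2 1.42.0, each section left out, interior spots, sections clustered alone and, chosen after seeing the data, best-marked spots. UMIs per section ran from 42422997 to 106783660. All 7 genes are named throughout, and of the related lists those called, except that some results on other subunit genes are not reported here. The members and lists were chosen with earlier results of these data known. With 2 sections per age, p-values measure the spread between these sections.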

Additional observations from a re-analysis of the deposited data

Results flagged for a closer look

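For 8 gene and comparison pairs the difference from adult itself differed between zones, by the zone-by-age interaction with sections as blocks (edgeR, adjusted over all genes). At 28 months the adjusted p was 1.80e-06 for Scn2a, 0.000133 for Scn8a, 0.000325 for Scn2b, 0.00576 for Scn3b, 0.0158 for Scn1a and 0.016 for Scn3a, and at P21 it was 0.0423 for Scn2a and 0.0461 for Scn3a. At 28 months 49.1% of all genes passed the same test, and at P21 12.2%.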

How the results depend on the processing

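Over the 6 zones and whole sections, 11 called results were recomputed under 156 alternatives in all, of which 131 kept the direction and the call, 22 kept the direction but not the call and 3 turned the direction. The 3 were Scn2a, Scn8a and Scn2b in aged FT under pan-neuronal scaling, at log2 fold changes of 0.010, 0.042 and 0.137. In RT and the subregions, 10 results under 125 alternatives gave 108, 17 and 0. Scn1a in aged TH, Scn1a, Scn2a and Scn3b in aged RT and Scn4b in upper CTX at P21 kept their call under all alternatives run. The 3 zone calls at P21 became 0 in the test against 1.5-fold and 2 to 5 with a section left out, and the 7 at 28 months became 4 and 7 to 11. In whole sections the 1 call at P21 became 0 with pan-neuronal scaling, 0 in the test against 1.5-fold and 0 to 1 with a section left out, and the 0 calls at 28 months became 1 with pan-neuronal scaling and were 0 with each section left out. Of the interactions, the 2 at P21 became 1 with filterByExpr alone, 1 with interior spots, 0 with sections clustered alone and 0 to 4 with a section left out, and the 6 at 28 months became 2 with sections clustered alone and 3 to 7 with a section left out. The shares of all genes passing under these settings are not given here, so the changed counts cannot be set against other genes. The cause was not tested. Same-numbered sections did not consistently deviate alike. In whole sections the correlations of their deviations were 0.15 (P21 and adult), -0.14 (P21 and aged) and -0.41 (adult and aged). For adult and aged HY the correlation was -0.46. With 2 sections per age, a negative value means that differently numbered sections deviated alike, and other pairings of sections were not tested. With the replicate number as a block, zone calls were 3 at P21 and 8 at 28 months and whole-section calls 1 and 0. Small regions limit the depth, as with the 11 and 16 UMIs of Scn3b in aged RT.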
